A study of Mus musculus with 12 samples.

Results

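Tumour necrosis factor (TNF) superfamily ligands and their receptors were followed across hearts under pressure overload on a fat-free or a high-fat diet. Members were chosen by symbol: every gene named Tnfsf or Tnfrsf with a number, together with Tnf, Lta, Ltb, Ltbr, Fas, Fasl, Cd27, Cd40 and Cd70. The rule found 41 of the 27179 genes in the tables, namely 16 ligands, 24 receptors and 1 antisense RNA, Tnfsf13os, which lies on the strand opposite to Tnfsf13. No measured value entered that choice.

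Ligands of this family are mostly trimers anchored in the cell membrane or shed from it, and each binds 1 or a few receptors with cysteine-rich repeats. Receptors with a cytoplasmic death domain can recruit caspase 8 or the kinase Ripk1, whereas the others bind Traf adaptors and signal to NF-kB, JNK and p38. In the heart the family is best known through TNF and its receptors, which are studied in pressure overload and heart failure, and through the Tweak receptor Fn14 (Tnfrsf12a), a receptor induced by injury in many tissues.

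RNA was sequenced from whole hearts of C57Bl/6J mice aged 12 weeks, with no transgene or deletion in any group. Their food held no fat (0 kcal% from it) or was rich in it (60 kcal%), and it was given for the 4 days that preceded surgery and for the 1 week up to tissue collection. Surgery was transverse aortic constriction (TAC), a narrowing of the aortic arch that loads the left ventricle, or a sham operation, so the 4 groups were fat-free sham (n = 3), fat-free TAC (n = 3), high-fat sham (n = 2) and high-fat TAC (n = 3). Replicate 1 of the high-fat sham group was not used here, and no group had an ordinary chow diet. Whether each library is a separate mouse is not in the labels, so the p-values measure only the spread between libraries.

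Libraries held 25906622 to 39699027 normalized counts each, with 16541 to 18348 genes detected. Ventricular muscle markers were present throughout, at 1042304 to 2121484 summed counts over 8 genes with none at 0, as the tissue label says. Atrial and fat tissue differed between libraries of the same group. Myl7, the atrial light chain, stood at 9915, 274 and 8426 counts in the fat-free sham libraries and at 1758, 23 and 75 in the fat-free TAC libraries. In high-fat hearts it stood at 4 and 6 in sham and at 14839, 10 and 6 in TAC, so high-fat TAC replicate 1 stands apart from the others. Adipoq, a fat cell gene, followed a like split, with 153, 95 and 88 against 58, 3 and 2 counts on the fat-free diet and 0 and 0 against 242, 0 and 1 on the high-fat diet. For some members results are also given below without these libraries, and for the others only as a range or a count of calls. Marker and pathway lists are given with all libraries only.

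The family was carried by receptors, and by few of them. Per kilobase of gene length, Tnfrsf12a was the most abundant member of sham hearts at a mean of 1394 normalized counts with fat-free and 1259 with high-fat feeding. Tnfrsf1a (TNF receptor 1) came next at 611 and 569, then Ltbr (the lymphotoxin beta receptor) at 395 and 398, and Fas, the death receptor, at 220 and 288. Below them in fat-free sham hearts were Tnfrsf21 (death receptor 6) at 133, the ligands Tnfsf12 (Tweak) at 122 and Tnfsf10 (Trail) at 80.2, and Tnfrsf1b (TNF receptor 2) at 48.5 per kilobase. The order of the first 4 was the same in all 4 groups. Summed per kilobase, the 24 receptors reached 2790 to 3224 counts in fat-free sham and 5536 to 6263 in fat-free TAC hearts, against 223 to 255 and 228 to 267 for the 16 ligands. In high-fat hearts the receptor sums were 2779 to 3021 in sham and 5184 to 6917 in TAC, and the ligand sums 269 to 271 and 293 to 301. Without Tnfrsf12a the receptor sum still lay higher in TAC hearts, at 1550 to 1618 against 1917 to 2349 on the fat-free and 1563 to 1720 against 2031 to 2596 on the high-fat diet.

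**Figure D1:**
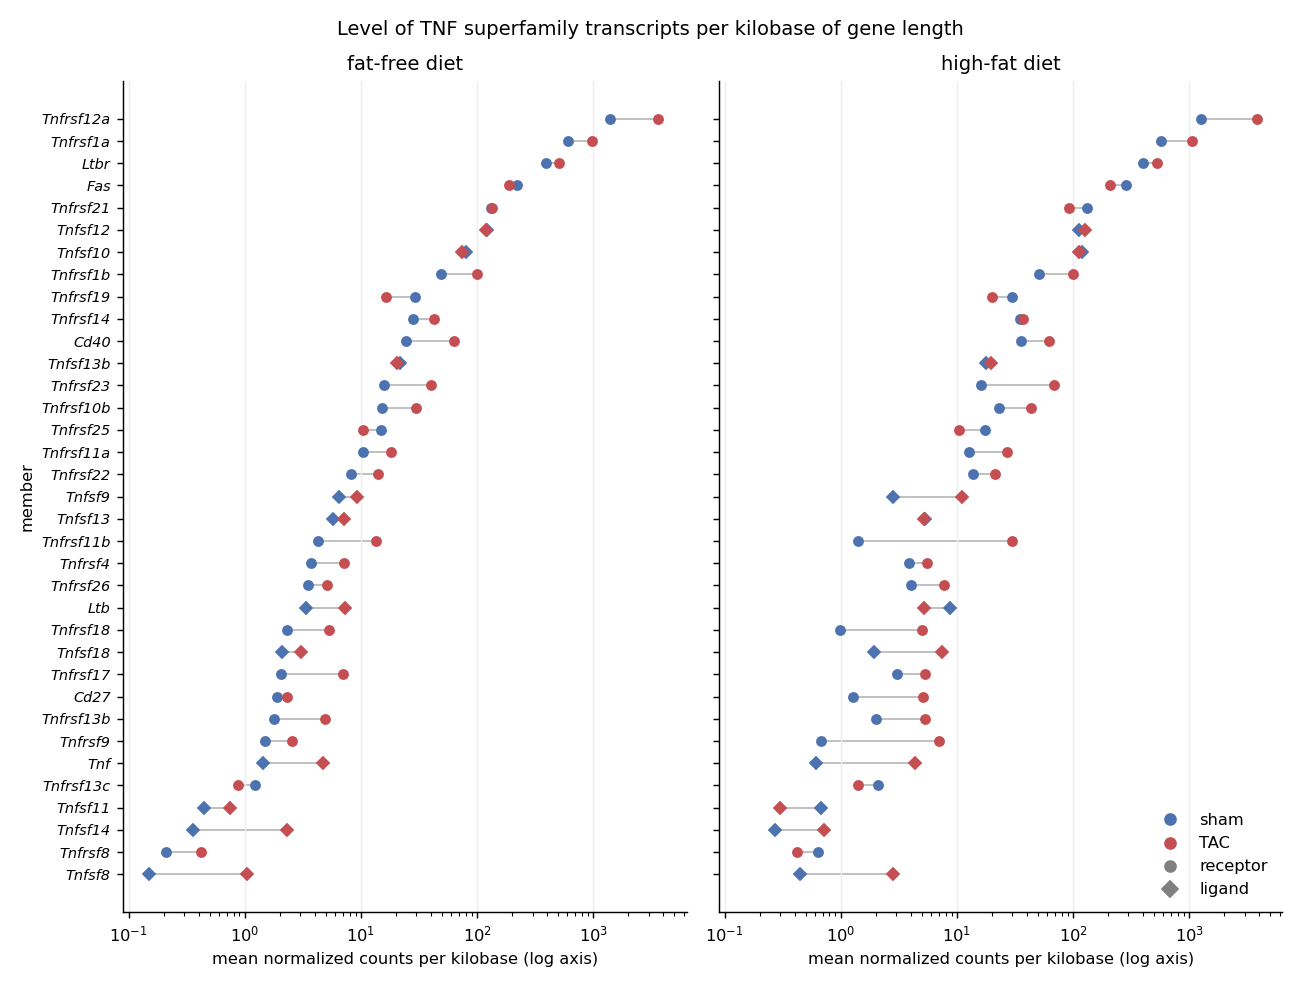
Mean normalized counts per kilobase of gene length (log axis) in sham and TAC hearts for the 35 ligands and receptors with a mean above 0 in every group, with the fat-free diet on the left and the high-fat diet on the right. Circles are receptors and diamonds ligands, and Tnfrsf12a lies highest in every group.

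At the other end, 12 members stayed under 10 normalized counts in every library: the ligands Cd70, Fasl, Lta, Tnfsf4, Tnfsf8, Tnfsf11, Tnfsf14 and Tnfsf15 and the receptors Tnfrsf8, Tnfrsf13b, Tnfrsf13c and Tnfrsf18. Cd70 was at 0 in all 11 libraries, which allows up to 3 counts in each. These members were not tested in the main fits, and no change in them is claimed at this depth.

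Promoter windows of 5 members are shown as examples, with the 2 most abundant members among them. Windows of other members called below, such as Ltbr, are not shown. The sequences are from RefSeq on GRCm38.p6 and run 5′ to 3′ on the gene's strand from 250 bases before to 50 bases after the annotated start. Capitals mark matches, on either strand, to the AP-1 motif TGANTCA, the STAT motif TTCNNNGAA and the interferon-response (ISRE) and NF-kB motifs, given here by name. The windows are Tnfrsf12a at chr17:23677400-23677699 (minus strand), Tnfrsf1a at chr6:125349473-125349772 (plus), Tnfrsf1b at chr4:145246821-145247120 (minus), Tnfrsf23 at chr7:143685826-143686125 (minus) and the downstream start of Tnfrsf9 at chr4:150927749-150928048 (plus).
Tnfrsf12a: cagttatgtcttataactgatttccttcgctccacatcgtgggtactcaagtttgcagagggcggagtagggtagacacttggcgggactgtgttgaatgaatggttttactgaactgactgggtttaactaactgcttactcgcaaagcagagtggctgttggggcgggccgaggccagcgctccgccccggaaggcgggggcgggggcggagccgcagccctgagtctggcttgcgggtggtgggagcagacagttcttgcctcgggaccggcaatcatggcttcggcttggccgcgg
Tnfrsf1a: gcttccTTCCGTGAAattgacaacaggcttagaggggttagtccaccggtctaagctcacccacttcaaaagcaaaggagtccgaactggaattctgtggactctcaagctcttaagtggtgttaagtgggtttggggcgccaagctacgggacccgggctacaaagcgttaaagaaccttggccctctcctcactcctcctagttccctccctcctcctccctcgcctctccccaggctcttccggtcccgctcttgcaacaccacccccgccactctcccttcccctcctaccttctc
Tnfrsf1b: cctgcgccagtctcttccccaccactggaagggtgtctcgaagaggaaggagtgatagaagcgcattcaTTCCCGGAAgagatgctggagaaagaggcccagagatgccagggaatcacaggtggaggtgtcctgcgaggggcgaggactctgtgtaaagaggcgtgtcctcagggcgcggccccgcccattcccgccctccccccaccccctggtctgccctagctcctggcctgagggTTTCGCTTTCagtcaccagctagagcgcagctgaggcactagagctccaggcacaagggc
Tnfrsf23: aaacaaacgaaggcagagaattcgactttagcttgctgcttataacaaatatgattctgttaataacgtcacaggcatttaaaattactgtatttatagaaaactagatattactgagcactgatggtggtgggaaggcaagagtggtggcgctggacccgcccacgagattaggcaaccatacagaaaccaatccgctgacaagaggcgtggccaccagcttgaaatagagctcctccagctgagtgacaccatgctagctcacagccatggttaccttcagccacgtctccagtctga
Tnfrsf9: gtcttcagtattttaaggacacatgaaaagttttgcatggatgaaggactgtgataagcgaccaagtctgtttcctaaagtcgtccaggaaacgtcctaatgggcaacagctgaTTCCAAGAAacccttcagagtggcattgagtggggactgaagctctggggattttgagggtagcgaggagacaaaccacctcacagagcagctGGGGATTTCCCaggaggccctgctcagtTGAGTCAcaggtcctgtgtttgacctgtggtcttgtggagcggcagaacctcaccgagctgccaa

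The Tnfrsf12a window held none of the 4 motifs and had 59.7% G and C, against a median of 52.7% over all windows. Nor did the Tnfrsf23 window hold any of them, with 46.3% G and C. The Tnfrsf1a window held 1 STAT match, and the Tnfrsf1b window held 1 STAT match and 1 interferon-response match that begins 10 bases before the start. The window of the downstream Tnfrsf9 start held an AP-1 match, a STAT match and 2 overlapping NF-kB matches, while the window of the upstream start held none. Of the 35 windows that matched 31 members, 7 held AP-1, 9 STAT, 4 the interferon-response motif and 4 NF-kB. The 2 Tnfsf13b windows overlap and hold the same AP-1 match, which is counted in both. The same motifs were in 7.81%, 8.30%, 3.44% and 8.46% of all 32851 windows. A match describes the letters of a window and is not a binding site.

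TAC hearts on the fat-free diet had higher levels of 7 receptors than sham hearts. They were Tnfrsf12a, Tnfrsf1a, Tnfrsf1b, Ltbr, Tnfrsf23, Tnfrsf10b and Cd40, while 1 receptor, Tnfrsf19, was lower and no ligand passed the test. The test was limma on log2(normalized count + 1), with an adjusted p under 0.1 over all genes taken as a call. It called 24.2% of 13995 genes, 14.2% higher and 10.0% lower, against 8 of the 21 members tested. The other 20 members lay under the filter of 10 counts in 3 libraries, and for 13 tested members adjusted p was 0.118 to 0.923. Without any 1 library, 5 to 8 members were called higher. Sham replicates 1 and 3 and TAC replicate 1 are the fat-free libraries above 1000 Myl7 counts. Without all 3, which leaves 1 sham library, the 7 receptors had log2 fold changes of 0.29 to 1.58 and limma called 0 of the 13995 genes, with 2117 at an unadjusted p under 0.05.

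On the high-fat diet the same 7 receptors were higher in TAC hearts, and with them Tnfrsf11a, Tnfrsf11b, Tnfrsf9 and the ligands Tnfsf9 and Tnfsf18. No member was called lower. The background there was 31.7% of 14274 genes, 16.9% higher and 14.8% lower, against 12 of the 23 members tested. Of those 12, Tnfrsf11b, Tnfrsf9, Tnfsf9 and Tnfsf18 were under 10 counts in both sham libraries, so they entered the test only through their TAC values. These calls rest on 2 sham libraries. Without sham replicate 2, 0 members and 0 genes were called, without sham replicate 3, 0 members and 128 genes, and without TAC replicate 3, 1 member, Tnfrsf12a, and 156 genes. Without TAC replicate 1, which was the highest of the 3 TAC libraries in 11 of the 12, 10 were called higher and 2 lower.

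**Figure D2:**
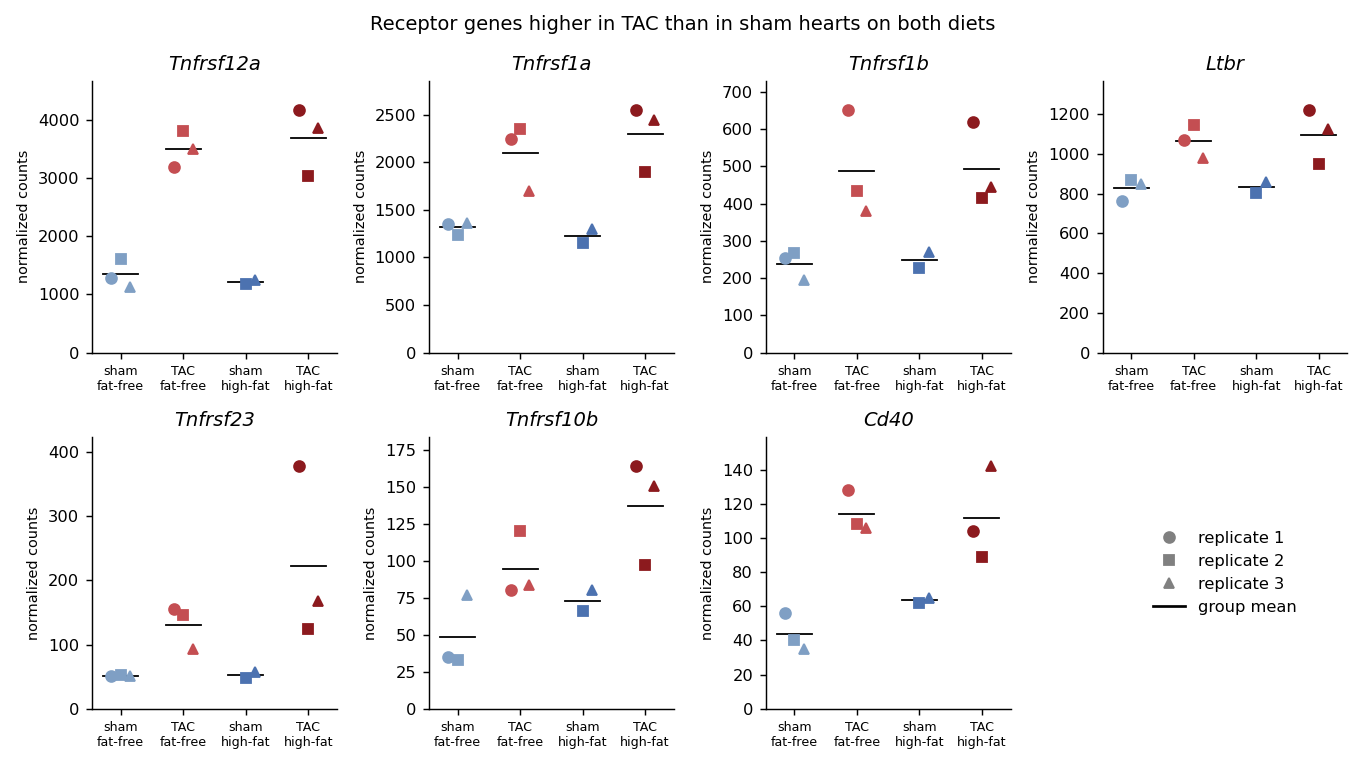
Normalized counts in each of the 11 libraries for the receptors called higher on both diets, with points marking libraries and bars the group means. TAC libraries lie above all sham libraries of the same diet in each panel, most closely in Tnfrsf10b on the fat-free diet, where sham replicate 3 has 77 counts and the lowest TAC library 80.

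Tnfrsf12a encodes Fn14, a small receptor without a death domain that binds Tweak and signals through Traf adaptors. The gene lies at chr17:23675445-23677449 on the minus strand of mm10, with 4 exons. Its counts were 1290, 1616 and 1131 in fat-free sham and 3183, 3817 and 3493 in fat-free TAC hearts. Every TAC library was well above every sham library. On the log2 scale the fold change was 1.39 ± 0.14 (SE, adjusted p = 0.00331), a 2.62-fold rise, and it stayed called without any 1 library, at 1.27 to 1.53. High-fat sham and TAC hearts were again apart, as Tnfrsf12a had 1173 and 1256 counts in sham and 4170, 3043 and 3861 in TAC. That gave a log2 fold change of 1.59 ± 0.15 (adjusted p = 0.0173), or 3.01-fold. An 80-base stretch, 8.29% of its length, overlaps Hcfc1r1 on the opposite strand. The library kit marks strand, but whether the counting used it is not given in the sources used here, so reads of that stretch cannot be told apart.

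Its ligand Tnfsf12, made as a membrane protein and cleaved to a soluble form, was not called on either diet. The 11 libraries held 169 to 258 counts, with 228, 179 and 211 against 220, 184 and 199 on the fat-free diet and 169 and 213 against 258, 194 and 187 on the high-fat diet. The groups overlapped on both diets. In log2 the fold changes were -0.03 ± 0.15 (adjusted p = 0.906) and 0.15 ± 0.21 (adjusted p = 0.613). Tnfsf12 and its neighbour Tnfsf13 share 57.7% and 74.7% of their length with the read-through gene Tnfsfm13 on the same strand, so reads there could have been split or dropped in counting.

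Tnf itself, the founding ligand, was near the limit of detection. It had 2, 5 and 0 counts in fat-free sham and 5, 8 and 10 in fat-free TAC hearts, which overlap at 5. In high-fat hearts it had 0 and 2 counts in sham and 8, 3 and 10 in TAC, all above sham but too low to test on either diet. Lymphotoxin alpha (Lta) reached at most 2 counts and lymphotoxin beta (Ltb) 1 to 14, with overlapping groups on both diets. Their receptors were far better measured. Tnfrsf1a, the widely expressed receptor with a death domain, had 1347, 1239 and 1363 counts in fat-free sham and 2243, 2353 and 1697 in fat-free TAC hearts. The TAC libraries were all higher, and the log2 fold change was 0.66 ± 0.13 (adjusted p = 0.0183), or 1.58-fold. With high-fat feeding 1153 and 1299 counts in sham stood against 2547, 1896 and 2440 in TAC. Again no TAC library reached down to sham, with a log2 fold change of 0.89 ± 0.16 (adjusted p = 0.0376), or 1.86-fold.

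Tnfrsf1b, the TNF receptor of immune and endothelial cells without a death domain, rose from a lower level. Its counts were 253, 268 and 194 in fat-free sham and 651, 433 and 379 in fat-free TAC hearts. TAC replicate 1 was the highest, and all 3 were above sham, with a log2 fold change of 1.00 ± 0.22 (adjusted p = 0.0234). Tnfrsf1b on the high-fat diet had 226 and 271 counts against 620, 416 and 445, without overlap, and its log2 fold change was 0.97 ± 0.21 (adjusted p = 0.0476). Without the 3 libraries above 1000 Myl7 counts the fat-free value was 0.59 (adjusted p = 0.328).

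Ltbr, which binds lymphotoxin and Light (Tnfsf14) on stromal and myeloid cells, had the smallest log2 fold changes of the receptors called. It had 765, 867 and 848 counts in fat-free sham and 1070, 1144 and 980 in fat-free TAC hearts. The groups did not overlap, and the log2 fold change was 0.36 ± 0.10 (adjusted p = 0.0482). With high-fat feeding 806 and 861 counts in sham stood against 1221, 949 and 1124 in TAC, with a log2 fold change of 0.39 ± 0.13 (adjusted p = 0.0941). The fat-free call ended when sham replicate 1 or TAC replicate 1 or 2 was left out, at an adjusted p of up to 0.158, and with log2 Myl7 as a covariate, at 0.148. Tnfsf14 itself stayed at 0 to 7 counts.

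Trail (Tnfsf10) is a ligand that can trigger apoptosis and is made by many cells. It had 350, 516 and 323 counts in fat-free sham, 353, 302 and 449 in fat-free TAC, 626 and 548 in high-fat sham and 371, 652 and 649 in high-fat TAC hearts. Sham and TAC overlapped on both diets, with log2 fold changes of -0.09 ± 0.21 (adjusted p = 0.791) and -0.12 ± 0.27 (adjusted p = 0.764). The mouse has 1 death receptor for Trail, Tnfrsf10b, and a pair of decoys without a death domain, Tnfrsf22 and Tnfrsf23. Tnfrsf10b had 35, 33 and 77 counts in fat-free sham and 80, 120 and 84 in fat-free TAC hearts, with sham replicate 3 apart from the other 2. The log2 fold change was 1.04 ± 0.35 (adjusted p = 0.0830), and the call held in 1 of the 6 fits that left out a library, the one without sham replicate 3 (1.43, adjusted p = 0.0295). Adjusted p was 0.108 to 0.245 in the other 5, which left out sham replicate 1 or 2 or TAC replicate 1, 2 or 3, and it was 0.115 without the filter on low values, 0.105 with a replicate block and 0.162 with log2 Myl7 as a covariate. High-fat sham libraries had 66 and 80 counts and TAC libraries 164, 97 and 151, without overlap, and the log2 fold change was 0.87 ± 0.28 (adjusted p = 0.0833).

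Tnfrsf23 lies at chr7:143665807-143685872 on the minus strand, in a row with Tnfrsf22 and Tnfrsf26. It had 51, 53 and 51 counts in fat-free sham and 155, 146 and 93 in fat-free TAC hearts. Sham libraries were almost equal and all TAC libraries higher, with a log2 fold change of 1.29 ± 0.23 (adjusted p = 0.0134), or 2.45-fold. High-fat hearts had 48 and 58 counts in sham and 378, 124 and 168 in TAC hearts. TAC replicate 1 was far above the other TAC libraries, and the log2 fold change of 1.90 ± 0.47 (adjusted p = 0.0572) was 1.43 (adjusted p = 0.0128) without it. Tnfrsf22 had 17 to 22 counts in fat-free sham, 25 to 40 in fat-free TAC, 30 and 33 in high-fat sham and 38 to 67 in high-fat TAC hearts. Its groups did not overlap on either diet, but it was not called. Of the distinct 50-base stretches in their transcripts, 18.0% in Tnfrsf23 and 27.4% in Tnfrsf22 also occur in another gene, 719 of them shared between the 2, so reads may have been split between them. Tnfrsf26, a mouse receptor of the same cluster, had 4 to 17 counts in fat-free sham, 8 to 25 in fat-free TAC, 11 and 13 in high-fat sham and 18 to 30 in high-fat TAC hearts.

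The bone-related receptors were called on the high-fat diet. Tnfrsf11a is Rank, the receptor that drives osteoclast formation, and Tnfrsf11b is osteoprotegerin, a secreted decoy that binds Rankl and Trail. Their ligand Rankl (Tnfsf11) had at most 4 counts in any library. Tnfrsf11a had 46, 60 and 50 counts in fat-free sham and 113, 106 and 57 in fat-free TAC hearts. TAC replicate 3 lay within the sham range, and the log2 fold change was 0.76 ± 0.29 (adjusted p = 0.118). Leaving out 1 library gave 0.58 to 1.07 with an adjusted p of 0.0218 to 0.307, and under the threshold only without TAC replicate 3. Without the 3 libraries above 1000 Myl7 counts it was 0.37 (adjusted p = 0.706). With high-fat feeding 44 and 84 counts in sham stood against 169, 106 and 135 in TAC, without overlap, with a log2 fold change of 1.13 ± 0.35 (adjusted p = 0.0775). It was 0.67 (adjusted p = 0.382) without sham replicate 2 and 1.59 (adjusted p = 0.190) without sham replicate 3, and without TAC replicate 3 adjusted p was 0.175. That call also ended without the filter on low values, at 0.116, and with log2 Myl7 as a covariate, at 0.106.

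Tnfrsf11b varied widely between libraries of a group. It had 23, 3 and 10 counts in fat-free sham and 32, 66 and 17 in fat-free TAC hearts, with overlapping groups and a log2 fold change of 1.75 ± 0.72 (adjusted p = 0.136). Leaving out 1 library gave 1.07 to 2.36 with an adjusted p of 0.0874 to 0.365. The lowest value was without sham replicate 2, and the call was reached without sham replicate 1 (2.36) or TAC replicate 3 (2.21). High-fat hearts had 2 and 6 counts in sham and 187, 13 and 52 in TAC. All TAC libraries were above sham, by very different amounts. The log2 fold change of 3.50 ± 1.10 (adjusted p = 0.0804) was 2.57 (adjusted p = 0.0605) without TAC replicate 1, and on the log2(count + 1) scale such low sham counts understate a fold change. Without the filter on low values adjusted p was 0.121, and it was 0.373, 0.249 and 0.180 without sham replicate 2, sham replicate 3 and TAC replicate 3. TAC replicate 1 also had the highest fibroblast marker sum, 302718 counts over 9 genes against 28300 and 33900 in sham, and the highest Myl7. With log2 Myl7 as a covariate the Tnfrsf11b value was 2.45 (adjusted p = 0.0792), and the difference between diets was -0.0577 in place of 1.76. The part of fibroblast transcripts was not tested.

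**Figure D3:**
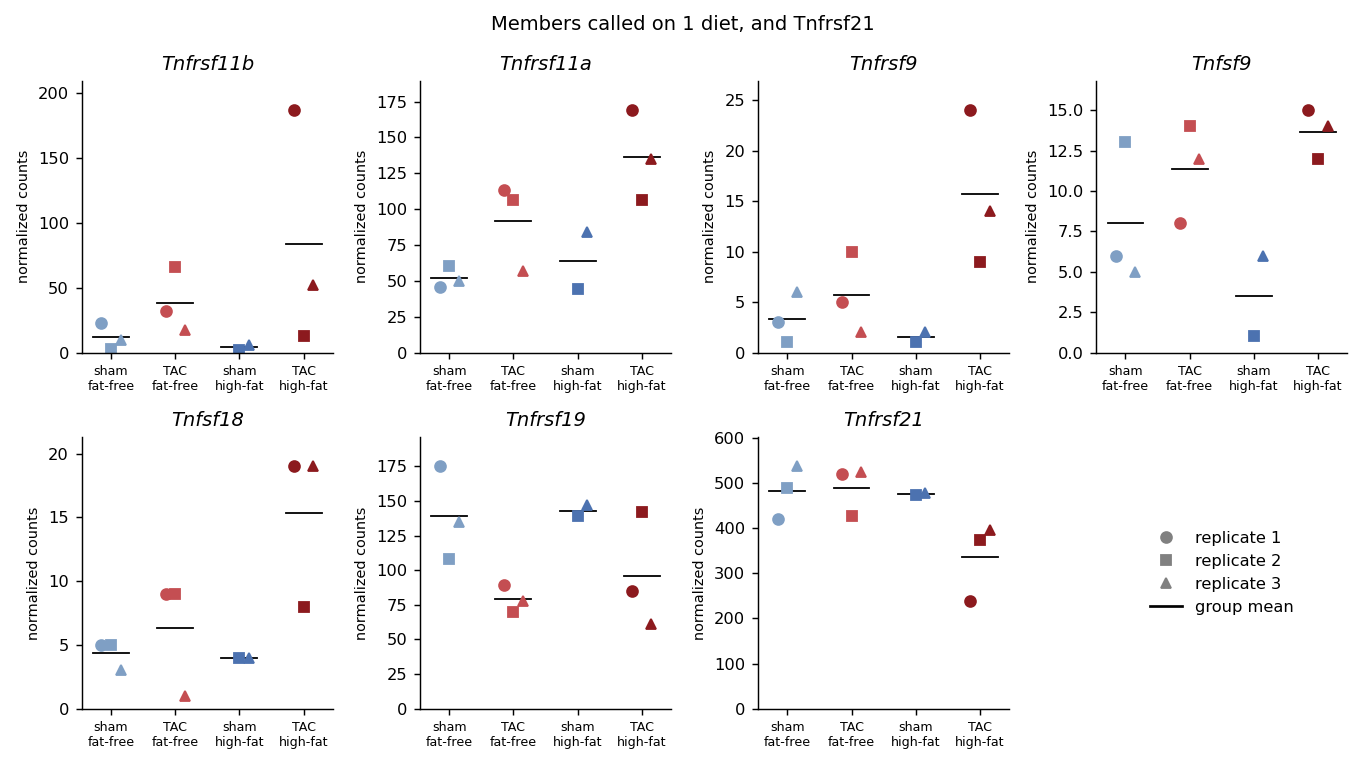
Normalized counts in each of the 11 libraries for the 6 members called on 1 diet and for Tnfrsf21, with points marking libraries and bars the group means. High-fat TAC replicate 1 (187 counts) lies far above the other libraries in Tnfrsf11b and is the lowest library in Tnfrsf21 (239 counts).

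Costimulatory receptors act mostly on lymphocytes and antigen-presenting cells. Cd40, which macrophages, dendritic cells, B cells and endothelium carry, had 56, 40 and 35 counts in fat-free sham and 128, 108 and 106 in fat-free TAC hearts. The gap between the groups was wider than the spread within them, with a log2 fold change of 1.39 ± 0.23 (adjusted p = 0.0108), or 2.62-fold. In the high-fat groups 62 and 65 counts stood against 104, 89 and 142, with a log2 fold change of 0.78 ± 0.25 (adjusted p = 0.0845) and no overlap. That call ended without the filter on low values, at 0.121.

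Tnfrsf9 (CD137), a receptor of activated T cells that other cells can also carry, had 3, 1 and 6 counts in fat-free sham and 5, 10 and 2 in fat-free TAC hearts, too few to test. With high-fat feeding 1 and 2 counts in sham stood against 24, 9 and 14 in TAC. All TAC libraries were above sham, and the log2 fold change was 2.67 ± 0.59 (adjusted p = 0.0499). With both sham values under 10, it entered the test only through its TAC values. Leaving out 1 library gave 2.32 to 2.98. Tnfrsf9 lost its call when either sham library was dropped, which leaves 1 in that group, and when TAC replicate 3 was dropped. Its ligand Tnfsf9, found on antigen-presenting cells, had 6, 13 and 5 counts in fat-free sham and 8, 14 and 12 in fat-free TAC hearts, which overlap (0.53 ± 0.49 in log2, adjusted p = 0.494). High-fat hearts had 1 and 6 counts in sham and 15, 12 and 14 in TAC, without overlap. The log2 fold change there was 1.97 ± 0.65 (adjusted p = 0.0879), and it missed the threshold in all 5 fits that left out 1 library, that is without sham replicate 2 or 3 or TAC replicate 1, 2 or 3, at an adjusted p of 0.110 to 0.381. The log2 fold change was 1.06 without sham replicate 2 and 2.87 without sham replicate 3. Without the filter adjusted p was 0.112 and with log2 Myl7 as a covariate 0.129.

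Tnfsf18, the ligand of the T cell receptor Gitr (Tnfrsf18), had 5, 5 and 3 counts in fat-free sham and 9, 9 and 1 in fat-free TAC hearts, too few to test. In high-fat hearts it had 4 and 4 in sham and 19, 8 and 19 in TAC, all higher, with a log2 fold change of 1.62 ± 0.54 (adjusted p = 0.0886). The call ended without the filter on low values (0.109), with log2 Myl7 as a covariate (0.146), with a replicate block (0.116), with all libraries in one fit (0.107) and without any library but TAC replicate 2 (up to 0.362). Tnfrsf18 had 0 to 8 counts over all libraries.

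T and NK cell markers, 14 genes, had 85 to 285 in fat-free sham, 73 to 227 in fat-free TAC, 81 and 102 in high-fat sham and 112 to 155 summed counts in high-fat TAC hearts. The 285 is fat-free sham replicate 3, which also had 207 counts over 5 markers of immature T cells of the thymus, against 112 and 75 in the other sham libraries, and 175 counts of the T cell kinase Lck, against 24 and 9. Of the T and NK cell markers, Cd4 was called higher on the fat-free diet (1.22 ± 0.33, adjusted p = 0.0457) and Lck on the high-fat diet (1.49 ± 0.36, adjusted p = 0.0558). The others of 4 tested on the fat-free diet were not called: Lck (-1.08 ± 0.96), Trac (0.06 ± 0.52) and Gzma (0.25 ± 0.62). Of 6 tested on the high-fat diet, Cd4 (0.54 ± 0.37), Il7r (0.26 ± 0.37), Gzma (0.42 ± 0.95), Trac (-0.23 ± 0.48) and Cd2 (-1.10 ± 0.52) were not called. The part of T and NK cells in the values of these receptors was not tested. The other pairs of this kind had few counts. Cd27, a T cell receptor for Cd70, had 2 to 5 counts on the fat-free diet and on the high-fat diet 2 and 2 in sham against 8, 6 and 10 in TAC. Tnfrsf4 (Ox40) had 3 to 6 counts in fat-free sham, 4 to 13 in fat-free TAC and 2 to 8 on the high-fat diet, and its ligand Tnfsf4 had 0 counts in all 5 sham libraries and 1 to 3 in all 6 TAC libraries. Cd30 ligand (Tnfsf8) had 0 to 3 counts on the fat-free diet and 1 and 1 against 9, 2 and 8 on the high-fat diet, while its receptor Tnfrsf8 had at most 2. Tnfrsf14, which binds Light, had 19 to 32 counts in fat-free sham, 30 to 43 in fat-free TAC, 30 and 33 in high-fat sham and 26 to 38 in high-fat TAC hearts. Tnfrsf25, a death domain receptor of T cells, had 11 to 38, 8 to 25, 26 to 30 and 6 to 24 counts in the same order, and its ligand Tnfsf15 at most 6.

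Baff (Tnfsf13b) and April (Tnfsf13), are survival factors of B cells. Tnfsf13b had 28 to 45 counts in fat-free sham, 32 to 37 in fat-free TAC, 28 and 32 in high-fat sham and 27 to 43 in high-fat TAC hearts. Sham and TAC overlapped on both diets. Tnfsf13 had 4 to 18 counts over all libraries and the antisense RNA Tnfsf13os 1 to 13. The receptors were at most 8 (Tnfrsf13b), 7 (Tnfrsf13c) and 10 (Tnfrsf17) counts in any library. B cell markers summed to 32 to 128 counts over 8 genes.

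Tnfrsf19 (Troy), a receptor without a death domain known from the nervous system and from progenitor cells, was the 1 member called lower. It had 175, 108 and 135 counts in fat-free sham and 89, 70 and 78 in fat-free TAC hearts. The groups did not overlap, and the log2 fold change was -0.79 ± 0.22 (adjusted p = 0.0475). It lost the call when sham replicate 1 or 3 or TAC replicate 2 was left out, at an adjusted p of up to 0.150, with scaling by library size alone (-0.65, adjusted p = 0.111) and with log2 Myl7 as a covariate (-0.47, adjusted p = 0.206). In the high-fat groups 139 and 147 counts in sham stood against 85, 142 and 61 in TAC, where TAC replicate 2 lay within the sham range. Its log2 fold change was -0.66 ± 0.36 (adjusted p = 0.226), and leaving out 1 library gave -0.98 to -0.38. The call was reached without TAC replicate 2 (-0.98, adjusted p = 0.0461), and the value was smallest without TAC replicate 3 (-0.38, adjusted p = 0.423).

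Fas and Tnfrsf21, both with a death domain, were not called but lay lower in every high-fat TAC library. Fas had 397, 385 and 406 counts in fat-free sham and 375, 314 and 334 in fat-free TAC hearts (-0.22 ± 0.12 in log2, adjusted p = 0.230). In the high-fat groups it had 476 and 562 in sham and 310, 433 and 377 in TAC (-0.48 ± 0.18, adjusted p = 0.106). TAC libraries were below all sham libraries on both diets, as were 17.6% and 33.1% of all genes tested. With all libraries in one fit the high-fat value passed, at an adjusted p of 0.0356, as it did without TAC replicate 1 (0.0977) or TAC replicate 2 (0.0566), while it was up to 0.420 without another library. Fasl, its ligand, had 0 to 4 counts. Tnfrsf21 had 421, 488 and 537 counts in fat-free sham and 519, 426 and 525 in fat-free TAC hearts (0.02 ± 0.14, adjusted p = 0.923). In the high-fat groups 474 and 477 in sham stood against 239, 374 and 397 in TAC (-0.53 ± 0.24, adjusted p = 0.155), with TAC replicate 1 lowest. Without that library the log2 fold change was -0.30 (adjusted p = 0.0782). Adjusted p was 0.0726 when all libraries were fitted together, and with a replicate block it was 0.0895, while it was up to 0.444 without another library. Of the tested members TAC lay above sham without overlap in 8 of 21 and below in 2 on the fat-free diet, and above in 14 of 23 and below in 3 on the high-fat diet. Those 14 include Tnfrsf11b, Tnfrsf9, Tnfsf9 and Tnfsf18, which passed the filter only through their TAC values. For them the filter itself favoured a lack of overlap. Over all 41 members, untested ones included, every high-fat TAC library lay above both sham libraries in 18 and below them in 3, and on the fat-free diet TAC lay above sham without overlap in 9 and below in 2. Among all genes tested TAC lay above in 30.6% and below in 33.1% on the high-fat diet, and above in 19.7% and below in 17.6% on the fat-free diet. These shares cover tested genes only, so the counts over all 41 members have no like share beside them.

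Macrophage markers and some collagen and matrix genes of the fibroblast list moved with the receptors that were higher. Of the dendritic cell markers, 3 did so on the fat-free diet and 1 on the high-fat diet. The sum over 12 macrophage and monocyte markers was 8748 to 10525 counts in fat-free sham and 15085 to 24112 in fat-free TAC hearts, with 11 of 12 called higher. In high-fat hearts it was 7279 to 8908 in sham and 12227 to 20515 in TAC, with 10 of 12 called higher. Fibroblast markers summed to 23704 to 43464 against 53864 to 167455 counts on the fat-free diet (4 of 9 called higher) and to 28300 to 33900 against 92799 to 302718 on the high-fat diet (5 of 9). The fibroblast genes called on both diets were Col1a1, Col3a1, Postn and Mfap5, with Lum as the fifth on the high-fat diet. The others were not called, among them Pdgfra (0.02 ± 0.18 and 0.30 ± 0.19), Dcn (-0.28 ± 0.24 and 0.23 ± 0.20), Tcf21 (-0.28 ± 0.19 and 0.49 ± 0.35) and Dpt (-0.22 ± 0.29 and 0.69 ± 0.35 in log2). None of the macrophage and fibroblast markers was at 0. Dendritic cell markers, 6 genes, summed to 213 to 283 against 288 to 383 counts on the fat-free diet. Flt3, Itgax and Ccr7 were called higher there of 4 tested, and Zbtb46 was not called (-0.09 ± 0.16 in log2). On the high-fat diet the sums overlapped, at 301 to 321 against 284 to 365, and Flt3 was called higher of 6 tested. Not called there were Itgax (1.116 ± 0.404), Ccr7 (0.47 ± 0.56), Clec9a (0.24 ± 0.54), Xcr1 (0.09 ± 0.76) and Zbtb46 (-0.20 ± 0.20). Endothelial markers, 8 genes, summed to 18400 to 24700 against 23504 to 27421 counts and to 25811 to 28792 against 23240 to 33256. The part of these cell types in the receptor values was not tested. In bulk RNA more cells of a type and more RNA per cell cannot be told apart, nor can fewer cells and less RNA per cell.

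Whether diet changed the response was tested as the difference of the TAC effects over all 11 libraries. limma called 0 of 14729 genes (0%), with 679 (4.61%) at an unadjusted p under 0.05, and 0 of the 26 members tested, none of them at an unadjusted p under 0.05. The lowest member p was 0.0617, and adjusted p ran from 0.784 to 0.991. Receptors called on the high-fat diet alone are therefore not shown to respond differently. For Tnfrsf12a the difference, high-fat minus fat-free, was 0.20 in log2, with a 95% interval of -0.29 to 0.70. For Tnfrsf1a it was 0.24 (-0.24 to 0.71), for Tnfrsf1b -0.03 (-0.77 to 0.71) and for Ltbr 0.03 (-0.33 to 0.39). The intervals of the low members were wide, at -0.12 to 4.24 for Tnfrsf9, -1.36 to 4.87 for Tnfrsf11b, -0.31 to 3.19 for Tnfsf9 and -0.70 to 3.62 for Tnfsf18. The estimate was negative for Cd40, at -0.61 (-1.36 to 0.14), and for Tnfrsf21, at -0.56 (-1.17 to 0.06), with intervals that span 0.

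**Figure D4:**
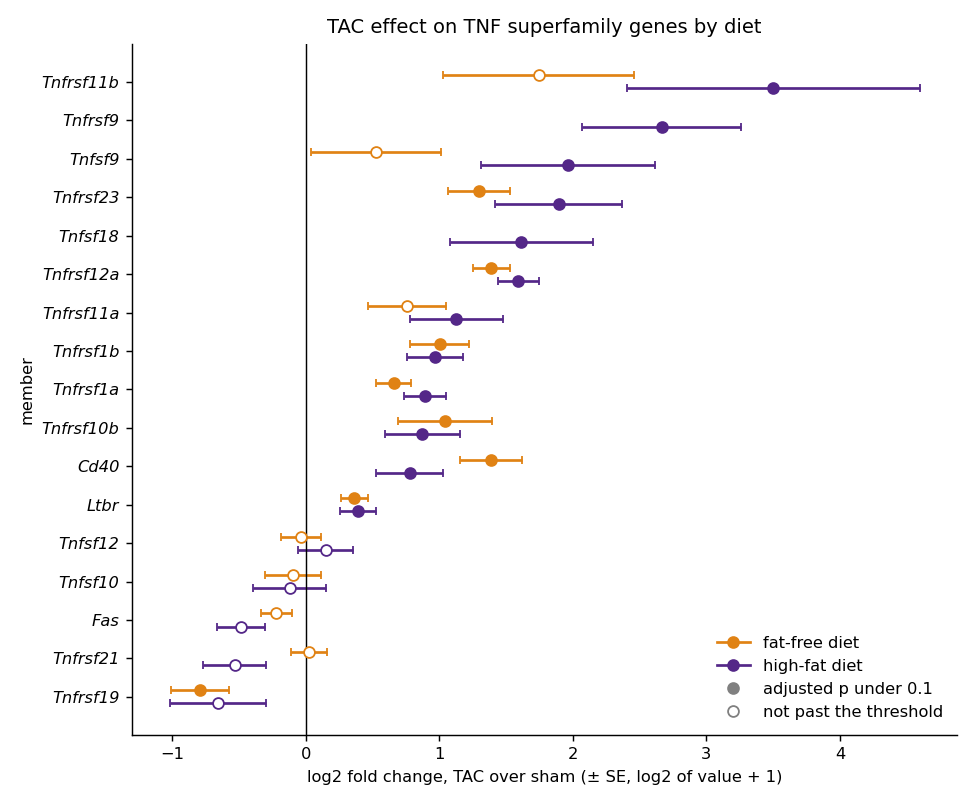
Log2 fold change of TAC over sham with error bars of 1 SE for the 17 members given a fold change, for the fat-free and the high-fat diet, with filled markers for those called at adjusted p under 0.1. Tnfrsf12a has short bars at 1.39 and 1.59, and Tnfrsf11b the longest, at 1.75 and 3.50.

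In the authors' deposited table, at their adjusted p under 0.1, 9 members were higher and 1 lower on the fat-free diet, against 14.3% and 9.92% of all genes with a p-value. Tnfrsf11a (0.68, adjusted p = 0.0792) and Tnfrsf11b (0.85, adjusted p = 0.0898) were the 2 that limma did not call, with fold changes in shrunken log2 in the authors' deposited table. On the high-fat diet that table called the same 12 higher that limma called and 2 lower, Fas (-0.57, adjusted p = 0.0180) and Tnfrsf21 (-0.46, adjusted p = 0.0941), against 19.8% and 17.7% of all genes. For Tnfrsf12a the authors' deposited table gave 1.32 (adjusted p = 7.37e-16) and 1.72 (adjusted p = 8.94e-15).

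Downstream of the receptors, the list with the largest share of its tested genes called, among the 7 lists and on both diets, was death signaling. Of its 14 genes, 10 were higher and 0 lower in fat-free TAC hearts, with a median log2 fold change of 0.55 against -0.02 over all genes. They included Casp8, the initiator caspase of death receptors (1.07 ± 0.15, adjusted p = 0.00574), the pore-forming Bak1 (0.89 ± 0.13, adjusted p = 0.00797) and Ripk3, the kinase of necroptosis (1.46 ± 0.22, adjusted p = 0.00828). With high-fat feeding 8 were higher, with a list median of 0.64 against -0.01 over all genes, among them Bak1 (0.90 ± 0.17, adjusted p = 0.0391) and Ripk3 (1.66 ± 0.31, adjusted p = 0.0405). Diablo, which blocks inhibitors of apoptosis, was lower (-0.43 ± 0.12, adjusted p = 0.0716). Over all genes tested, 14.2% were higher and 10.0% lower on the fat-free diet, and 16.9% and 14.8% on the high-fat diet.

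Adaptors and ubiquitin enzymes at the receptors moved little as a group, with list medians of 0.10 and 0.08. Of 19, Traip (1.44 ± 0.35) and Tradd (0.61 ± 0.20) rose and Birc2 fell (-0.25 ± 0.09) on the fat-free diet. In high-fat TAC hearts Traf1 (1.20 ± 0.29), Traf5 (0.75 ± 0.18), Tradd (0.66 ± 0.20) and Traip (1.49 ± 0.52) rose and Sharpin fell (-0.37 ± 0.10). Tradd links death domains to Ripk1 and Traf2. Of 17 kinases to NF-kB and JNK, 3 fell on the fat-free diet, namely Mapk14 (p38 alpha, -0.51 ± 0.09), Tab1 (-0.36 ± 0.11) and Tab3 (-0.36 ± 0.12). In high-fat TAC hearts Mapk14 (-0.78 ± 0.15) and Map3k5 (-0.84 ± 0.27) fell and Ikbke rose (1.48 ± 0.44). The list medians were -0.18 and -0.17, and 10.0% and 14.8% of all genes tested were lower on the fat-free and the high-fat diet. In the same order 14.2% and 16.9% of all genes tested were higher, and the counts of adaptors that rose lie near those shares.

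NF-kB subunits and inhibitors had 3 of 15 tested genes higher and 0 lower on the fat-free diet, namely Otulin (0.82 ± 0.17), Nfkbie (1.16 ± 0.32) and Tnip1 (0.39 ± 0.11), all known as restraints on NF-kB signaling. In high-fat TAC hearts 7 were higher, among them Relb (0.58 ± 0.13), Otulin (0.66 ± 0.15) and Bcl3 (1.19 ± 0.31), and Nfkbib was lower (-0.44 ± 0.13). All genes tested were higher in 14.2% and lower in 10.0% on the fat-free diet and higher in 16.9% and lower in 14.8% on the high-fat diet, and the fat-free counts of both NF-kB lists lie near those shares. Of the TNF-induced NF-kB target genes, 4 of 23 were higher and 3 lower on the fat-free diet, with a list median of 0.29. The chemokine Cxcl10 (2.79 ± 0.42, adjusted p = 0.00828) and the endothelial adhesion molecule Sele (1.84 ± 0.37, adjusted p = 0.0186) rose and Mmp9 fell (-1.34 ± 0.40, adjusted p = 0.0603). On the high-fat diet 11 of 24 were higher and 2 lower, with a median of 0.58. The smallest adjusted p were those of Cxcl10 (3.39 ± 0.58, adjusted p = 0.0370), Sele (1.75 ± 0.36, adjusted p = 0.0442) and Icam1 (0.72 ± 0.16, adjusted p = 0.0480).

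Sheddases, which cut ligands or receptors from the membrane, and regulators of release had 8 genes tested. Mmp14 (1.88 ± 0.40), Rhbdf1 (0.59 ± 0.13) and Adam10 (0.40 ± 0.10) rose on the fat-free diet. On the high-fat diet Mmp14 (2.50 ± 0.33), Adam10 (0.61 ± 0.11), Rhbdf1 (0.57 ± 0.16) and Adam17 (0.34 ± 0.09), the TNF-converting enzyme, rose. Family genes whose symbols fall outside the rule had 1 call per diet, Rell1 on the fat-free (0.71 ± 0.14, adjusted p = 0.0191) and Eda2r on the high-fat diet (0.90 ± 0.17, adjusted p = 0.0389). The difference between diets was called for 0 genes in all 7 lists. Outside the rule of up to 3 genes per list, Tradd, Traip, Rhbdf1, Nfkbib and Diablo on the high-fat diet were named after their values were seen.

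**Figure D5:**
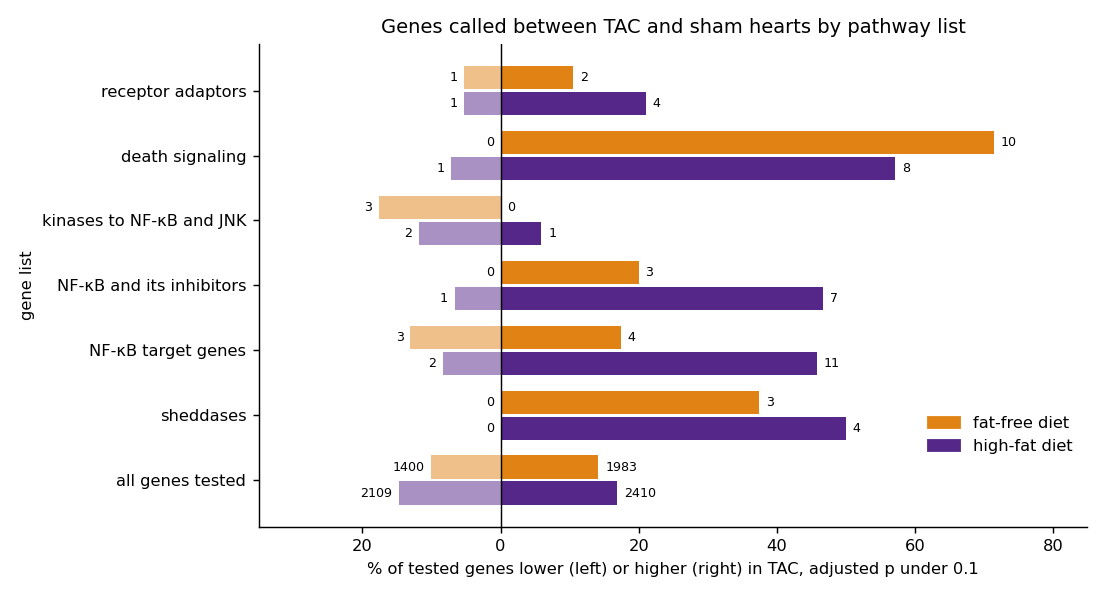
Percent of tested genes called lower (left) and higher (right) in TAC hearts in 6 lists around the receptors and over all genes, on each diet, with the numbers of genes beside the bars. Death signaling has 10 of 14 genes higher on the fat-free diet and 8 on the high-fat diet.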

How the data were processed

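Whole-heart RNA was sequenced with a stranded mRNA kit, per the labels' protocols. Per the submitters' processing notes STAR, Subread and featureCounts were used on build mm10 and DESeq2 for testing, without versions. Each diet had its own values for 27179 genes. The per-library values are a score here, since they were deposited as whole numbers already scaled per library, separately by diet, as the values themselves show. Of the whole numbers 1 to 60, some never occur in replicates 2 and 3 of both sham groups. The tables also give the authors' fold changes, as shrunken log2, and the authors' adjusted p-value. Of 12 libraries in the labels 11 had a column, and 0 columns were unmatched. Symbols were missing for 847 genes, and 27 stored as calendar dates were restored by gene ID.

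Genes with at least 10 counts in 3 libraries (fat-free) or 2 (high-fat, difference) were tested with limma 3.58.1 (R 4.3.3, data.table, version 1.17.8) on log2(value + 1), with trend, two-sided, and Benjamini-Hochberg adjusted p under 0.1 over all genes. The values are not raw counts, so no count model was run. The difference was fitted over all 11 libraries, and diets were not tested against each other because their tables were normalized separately. Levels were compared between genes as counts per kilobase of the deposited gene length. The script was tested on simulated data, where it recovered 28%, 44% and 6% of 2-fold changes and 100%, 94% and 80% of 4-fold changes on the fat-free diet (13995 genes), the high-fat diet (14274) and for the difference (14729). Of its calls there 7.81%, 11.9% and 8.74% were false. Few genes were changed in that simulation, all genes had the same set dispersion, and no library differed in atrial or fat tissue. Its rates therefore need not hold for these data. The main fits did not pair libraries by replicate number. Whether same-numbered libraries belong together is not in the labels, and correlations over so few libraries do not decide it. Python 3.11.15, pandas 2.3.3, numpy 2.4.6 and matplotlib 3.10.9 were used for the rest.

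Members, gene lists and marker lists were chosen with earlier results of these data known. All members are named. Those called on a diet or with a mean of at least 100 counts have fold changes, and each list gives up to 3 genes of smallest adjusted p per comparison. One gene named by that rule is not reported here. Myl7 and Adipoq stand for atrial muscle and fat. Alternatives were other pseudocounts (5 and 0.5), no filter, scaling by library size alone, a replicate block, log2 Myl7 as a covariate, all libraries in one fit and leaving out each library. One more, without the 3 fat-free libraries above 1000 Myl7 counts, was chosen after seeing the data.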

Additional observations from a re-analysis of the deposited data

How the results depend on the processing

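With a pseudocount of 5 or 0.5 every fold change given kept its direction and its side of the threshold. Scaling by library size alone moved the median over all genes from -0.02 to 0.13 (log2) on the fat-free diet, with 2766 genes higher and 704 lower instead of 1983 and 1400, and 9 members higher and 0 lower. On the high-fat diet it moved the median to 0.40, with 6849 genes called (6291 higher, 558 lower) and 14 members higher. It turned Tnfsf10 to 0.0474 and Tnfsf12 to 0.11 on the fat-free diet and Tnfsf10 to 0.30 on the high-fat diet, and the differences between diets to 0.0114 (Fas), 0.10 (Tnfrsf10b), 0.24 (Tnfrsf1b) and 0.25 (Tnfsf10). Without the filter on low values 2814 genes and 5 members higher were called on the high-fat diet. With log2 Myl7 as a covariate 5 members were higher and 0 lower on the fat-free and 7 higher on the high-fat diet. That covariate turned Tnfsf12 (0.17) and Tnfsf9 (-0.17) on the fat-free diet, Tnfsf10 (0.20) and Tnfsf12 (-0.0221) on the high-fat diet, and the differences of Ltbr (-0.059), Tnfrsf11b (-0.0577), Tnfrsf19 (-0.0348), Tnfrsf23 (-0.17), Tnfsf10 (0.54) and Tnfsf12 (-0.19). All libraries in one fit gave 2 members lower on the high-fat diet. Same-numbered libraries correlated at 0.44, 0.14 and -0.16 on the fat-free and 0.15 and -0.12 on the high-fat diet. A replicate block gave 3322 genes and 6 members higher with 1 lower on the fat-free, 6102 genes and 11 higher with 1 lower on the high-fat diet and 0 genes for the difference. It turned Tnfsf10 on the high-fat diet to 0.15 and the differences of Ltbr (-0.0541) and Tnfsf10 (0.25). Without the 3 fat-free libraries above 1000 Myl7 counts 0 genes were called, 0 members higher and 0 lower, and Tnfrsf21 (-0.0452), Tnfsf12 (0.0958) and Tnfsf9 (-0.0037) turned. Without 1 library each, 1457 to 3927 genes, 5 to 8 members higher and 0 to 1 lower were called on the fat-free diet. On the high-fat diet 0 to 5945 genes, 0 to 11 members higher and 0 to 2 lower were called, and for the difference 0 to 1 gene and 0 members. The same step gave -0.0695 to 0.122 for Tnfrsf21, -0.25 to 0.11 for Tnfsf10 and -0.129 to 0.0445 for Tnfsf12 on the fat-free diet, and -0.25 to 0.15 for Tnfsf10 and -0.0152 to 0.317 for Tnfsf12 on the high-fat diet. The differences ran from -0.0541 to 0.128 (Ltbr), -0.554 to 0.0624 (Tnfrsf10b), -0.0881 to 0.829 (Tnfrsf11a), -0.19 to 0.41 (Tnfrsf19), -0.21 to 0.19 (Tnfrsf1b) and -0.23 to 0.25 (Tnfsf10). The cause of these changes was not tested. Of the fold changes recomputed under an alternative, 562 kept direction and side of the threshold, 77 lost the threshold, 11 gained it and 53 turned. These counts pool the 3 comparisons. They include members that were not called in the main fit, and the difference between diets, where 0 members were called. Such members could not lose the threshold, so 77 is not a share of the calls made. No change is claimed at this depth for members under about 10 counts in every library.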
